A study of Mus musculus with 6 samples.

Results

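Hnf4a, Hnf4g, Cdx1, Cdx2, Ppara, Ppard, Pparg, Ppargc1a, Esrra and Prdm16 encode transcription factors and cofactors of enterocyte identity and fat oxidation. They were matched by gene symbol, all 10 were found among the 32285 genes measured, and their unique molecular identifiers (UMIs, 1 for each captured RNA molecule) were summed by cell class in 6 single-cell libraries of mouse jejunal epithelium. The mice were male wildtype C57BL/6J, about 30 weeks old, kept for 16 weeks on a low-fat (LFD) or high-fat diet (HFD), fasted overnight and killed 5 weeks after a sham operation or vertical sleeve gastrectomy (VSG), which removes a large part of the stomach. The groups were LFD sham (3 mice pooled), HFD sham (3 mice pooled) and HFD VSG (2 mice pooled), and each pool gave 1 crypt-labelled and 1 villus-labelled library. With 1 library per group and fraction, differences could not be weighed against variation among mice, no test was made, and the bracketed 95% intervals cover counting error only.

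The intestinal epithelium is renewed from stem cells in the crypt, whose progeny divide, turn into absorptive enterocytes or into goblet, Paneth, tuft or enteroendocrine (EEC) cells, and move up the villus until they are shed at the tip. HNF4 receptors and CDX homeobox factors bind the enhancers of enterocyte genes and set intestinal identity. PPAR receptors are fatty acid sensors that switch on genes of lipid uptake and oxidation, PGC-1 alpha (Ppargc1a) and the orphan receptor ERR alpha (Esrra) drive mitochondrial genes, and PRDM16 is a zinc-finger cofactor known from brown fat and from the upper intestine.

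Libraries and labels were compared first. The barcodes called as cells held 60522766 to 155522445 UMIs per library, 24575 barcodes passed the filters, and between 2 and 11 barcode sequences were shared by any pair of libraries. The median passing barcode held 9165 to 30473 UMIs, the most in the villus-labelled HFD VSG library. The fraction labels ran against the markers in every group. Stem-like, cycling and Paneth-like cells made up 4.91, 5.53 and 8.37% of epithelial cells in the crypt-labelled LFD sham, HFD sham and HFD VSG libraries, against 21.9, 14.7 and 28.3% in the villus-labelled ones. Levels are therefore given by cell class, and the libraries are called only by their labels. In enterocyte-like cells 5 fibroblast markers summed to at most 0.0645 CPM, 6 macrophage markers to at most 0.838 CPM and 12 immune markers to 0.618 to 65.4 CPM, and 5 B-cell markers reached 82.7 and 98.6 CPM in the villus-labelled LFD and HFD sham libraries. Their part in the results was not tested.

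A level is the number of UMIs of a gene per 1000000 UMIs of the whole class in a library (CPM). Values of all 6 libraries are given in the order LFD sham, HFD sham and HFD VSG. Because the kit counts only the 3′ end of each RNA, levels of different genes are not ranked against each other. Classes are named "X-like" from marker genes, and the 10 regulators were left out of the matrix that grouped the cells and of the markers, so their levels did not place any cell. Since the grouping still rests on the same RNA, class against class is given as a description. The classes held 10234 enterocyte-like, 944 stem-like, 1641 cycling progenitor-like, 1261 early progenitor-like, 1430 goblet-like, 697 Paneth-like, 246 tuft-like and 219 EEC-like cells. A further 2852 cells formed a cluster without a name, cluster 1, led by Ms4a18 and Car4. Sums of fewer than 20 cells are left out, which applies to the tuft-like cells of the crypt-labelled HFD sham library and the immune-like cells of the villus-labelled HFD sham library.

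Free RNA from broken cells adds UMIs to every droplet. Immune-like cells, taken as cells that should lack the epithelial regulators, held Hnf4g at 5.75 to 80.8 CPM, Hnf4a at 12.6 to 67.4 CPM, Ppargc1a at 1.92 to 31.4 CPM and Ppara at 1.92 to 22.5 CPM over 5 libraries. They held Esrra at 34.1 to 63.7 CPM, Ppard at 9.2 to 27.1 CPM, Cdx1 at 5.37 to 23.9 CPM and Cdx2 at 8.81 to 23.9 CPM. For Ppard and Esrra the immune-like level was above the free RNA estimated from enterocyte markers (2.7 to 7.43 and 11.2 to 35.5 CPM) in all 5 libraries. The immune-like Ppard sums were of 3 to 48 UMIs. Hnf4a, Cdx1 and Cdx2 were above their estimates in most but not all of these libraries. In crypt-labelled LFD sham Hnf4a stood at 67.4 against 37.0 CPM, and in villus-labelled LFD sham at 24.8 against 25.9 CPM. The immune-like ranges pool 5 libraries. For Hnf4g, Hnf4a, Ppargc1a and Ppara, levels of other classes within these ranges were not separated from free RNA by the ranges alone.

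The 2 HNF4 receptors differed in opposite directions between stem-like and enterocyte-like cells. Hnf4a, the receptor that binds enterocyte and liver enhancers, lies at chr2:163506808-163572910 (plus strand) in GRCm38, and Hnf4g, its gut paralog, at chr3:3508030-3658052 (plus strand). In stem-like cells Hnf4a stood at 219.8, 239.6 and 187 CPM (crypt-labelled) and 249.8, 251 and 152 CPM (villus-labelled). In enterocyte-like cells it stood at 164, 152 and 174 CPM (crypt-labelled) and 153, 126 and 126 CPM (villus-labelled). The enterocyte-like level was the lower in all 6 libraries, 5 of 6 intervals excluded 0, and the ranges overlapped, with a median log2 ratio of -0.54 (range -0.99 to -0.10). The median of this ratio over all genes that averaged at least 50 UMIs was -0.37. Hnf4a was highest in cycling progenitor-like cells in each library, at 161 to 274 CPM.

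Hnf4g stood at 94.4, 84.2 and 92.7 CPM (crypt-labelled) and 102, 80.4 and 61.9 CPM (villus-labelled) in stem-like cells. Enterocyte-like cells held it at 537, 479.5 and 509.7 CPM (crypt-labelled) and 466, 522 and 310.4 CPM (villus-labelled). Every enterocyte-like value lay above every stem-like value. The median log2 ratio was 2.48 (range 2.20 to 2.70), a 5.59-fold difference, and 3.42 with free RNA subtracted by the fractions of immune-like cells. The stem-like levels of the villus-labelled HFD sham and HFD VSG libraries lay within the range of the immune-like cells, which pools libraries. In the villus-labelled HFD VSG library itself, immune-like cells held 5.75 CPM, against 61.9 CPM in stem-like cells. Cycling progenitor-like cells held 97.2 to 217 CPM, early progenitor-like cells 202 to 497 CPM and cluster 1 255 to 569 CPM, and the cycling level was above the stem-like one in all 6 libraries. Early progenitor-like cells, cluster 1 and enterocyte-like cells overlapped in their ranges. In goblet-like cells Hnf4g stood at 25.5 to 131 CPM, which overlaps the pooled range of the immune-like cells. When each cell was thinned to 1500 UMIs, 37.2 to 52.7% of enterocyte-like cells held an Hnf4g UMI per library, against 8.88 to 14.6% of stem-like and 1.29 to 9.6% of immune-like cells (unthinned 84.6 to 97.6%, 55.3 to 71.1% and 3.62 to 19.0%).

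As a share of the UMIs of both HNF4 genes, Hnf4a took 66.9 to 75.7% in stem-like, 50.4 to 62.3% in cycling progenitor-like, 24.1 to 37.9% in early progenitor-like and 19.4 to 28.9% in enterocyte-like cells. Goblet-like cells, at 58.9 to 81.1%, overlapped stem-like cells in this share, and EEC-like and tuft-like cells stood at 49.3 to 70.5% and 48.3 to 69.6%. The highest share in early progenitor-like, cluster 1 and enterocyte-like cells, 37.9%, lay below the lowest in goblet-like, EEC-like and tuft-like cells, 48.3%. The size of the share depends on how well each 3′ end is captured.

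**Figure D1:**
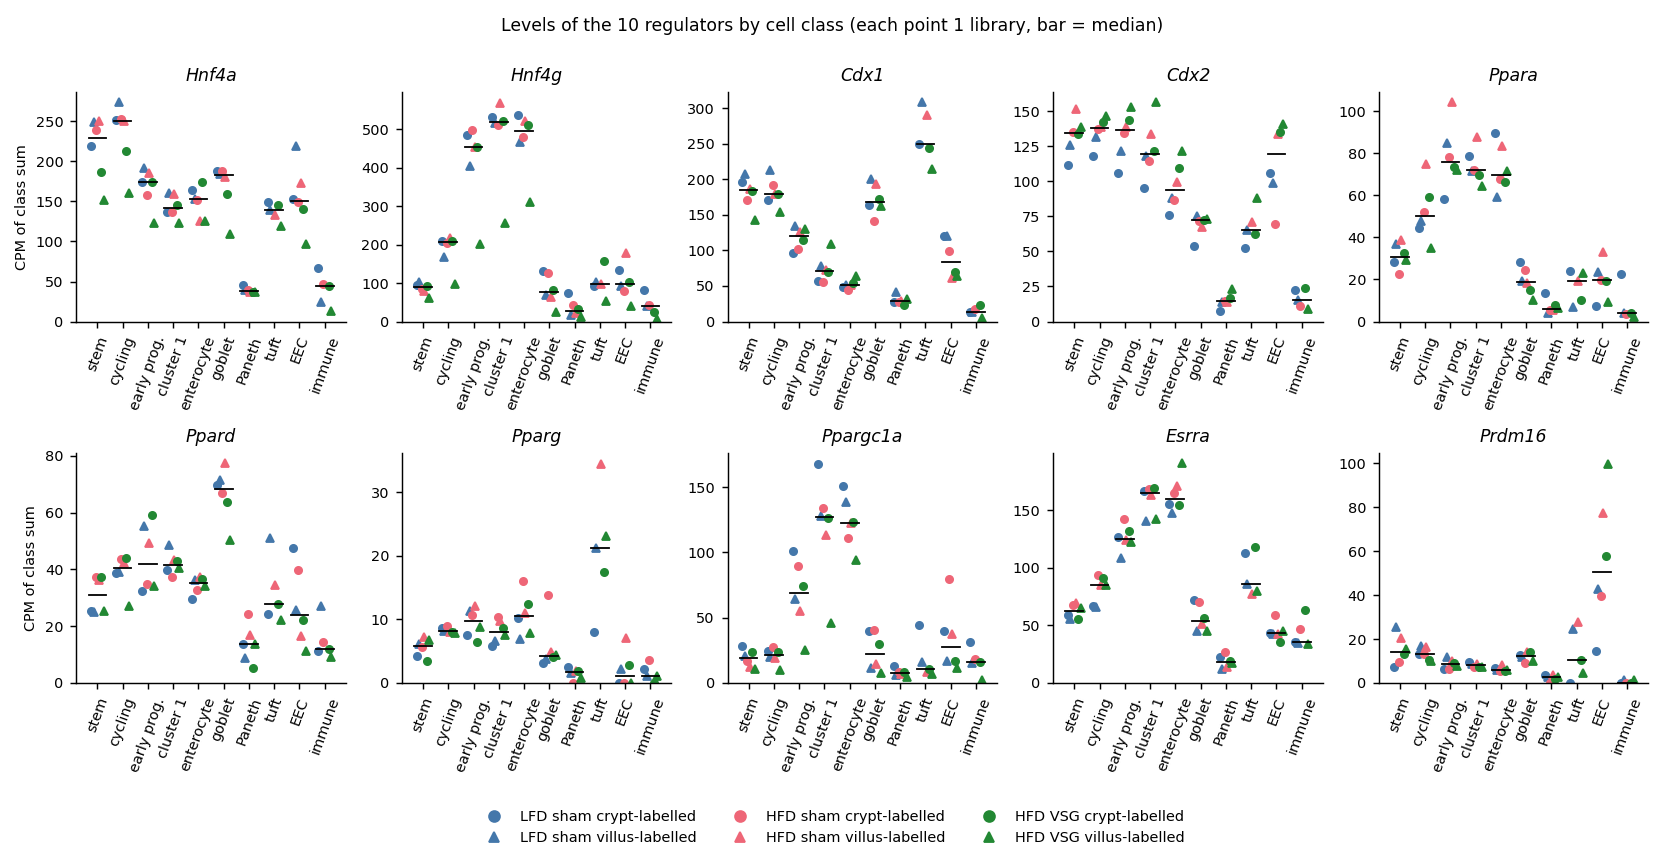
Levels of the 10 regulators (CPM of the class sum, linear axes from 0) in 10 cell classes, with 1 point per library, coloured by group and shaped by label, and a bar at the median. Hnf4g, Ppargc1a, Esrra and Ppara are higher from early progenitor-like to enterocyte-like cells than in stem-like cells, Cdx1 is highest in tuft-like cells where they were measured, Ppard in goblet-like and Prdm16 in EEC-like cells.

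The RefSeq promoter table (GRCm38.p6) gives Hnf4a 2 starts, which cannot be told apart in counts of 3′ ends. The 250 bases before each start are shown because Hnf4a was high at both ends of the crypt to villus axis. Capitals mark matches on either strand to AGGTCA (the core bound by HNF4, PPAR and ERR receptors), to AGGTCA repeated after 1 base, to AGGTCA preceded by TCA (the ERR element, which contains the core), to TTTATN (a CDX core) and to GGGCGG (a GC box).
Hnf4a upstream start (chr2:163506607-163506856, plus strand): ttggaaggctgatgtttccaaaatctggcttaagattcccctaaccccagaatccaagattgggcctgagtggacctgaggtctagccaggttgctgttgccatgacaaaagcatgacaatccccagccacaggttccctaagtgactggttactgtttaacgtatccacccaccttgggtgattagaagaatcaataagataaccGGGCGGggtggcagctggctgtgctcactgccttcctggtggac
Hnf4a downstream start (chr2:163546905-163547154, plus strand): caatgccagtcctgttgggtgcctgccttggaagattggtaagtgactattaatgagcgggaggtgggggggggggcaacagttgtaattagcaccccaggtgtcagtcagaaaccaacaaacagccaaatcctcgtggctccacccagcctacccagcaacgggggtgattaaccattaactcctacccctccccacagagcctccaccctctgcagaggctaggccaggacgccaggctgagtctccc
The upstream window held 1 GC box and the downstream one 0, and neither held another of these motifs. Of 32851 windows of this length in the table, 32.7% held a GC box, 14.0% AGGTCA, 37.2% TTTATN, 0.387% the ERR element and 0.0335% the repeat. Of the 10 regulators 8 were matched in the table, and Hnf4g and Cdx1 were not.

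The CDX factors, which set intestinal identity, had lower levels in enterocyte-like than in stem-like cells. Cdx1 lies at chr18:61018862-61036199 (minus strand) and Cdx2 at chr5:147300805-147307270 (minus strand) in GRCm38. In stem-like cells Cdx1 stood at 196, 170.3 and 183 CPM (crypt-labelled) and 207, 187 and 143 CPM (villus-labelled). Enterocyte-like cells held it at 48.1, 43.8 and 54.1 CPM (crypt-labelled) and 51.2, 51.6 and 64.3 CPM (villus-labelled). Every stem-like value lay above every enterocyte-like value. The median log2 ratio of enterocyte-like to stem-like cells was -1.91 (range -2.03 to -1.15), a 3.75-fold lower level. Early progenitor-like cells held 96.4 to 135 CPM, cluster 1 held 56.0 to 109 CPM and overlapped enterocyte-like cells, and cycling progenitor-like cells, at 154 to 213 CPM, overlapped stem-like cells.

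Tuft-like cells, the chemosensory cells of the epithelium, held Cdx1 at 214 to 308 CPM over 5 libraries, above stem-like cells in all 5, with a median log2 ratio of 0.57 (range 0.35 to 0.64), and above enterocyte-like cells by 2.38 (range 1.74 to 2.59). Goblet-like cells held 141 to 201 CPM, which overlaps stem-like cells. Cdx2 in stem-like cells stood at 111, 135 and 134 CPM (crypt-labelled) and 126, 152 and 139 CPM (villus-labelled). In enterocyte-like cells it stood at 75.7, 87.0 and 109.7 CPM (crypt-labelled) and 87.7, 99.4 and 122 CPM (villus-labelled). The stem-like value was the higher in all 6 libraries, although the ranges overlapped, and the median log2 ratio was -0.54 (range -0.63 to -0.19). Over all genes that median was -0.37. Cycling, early progenitor-like and stem-like cells did not differ in order for Cdx2 beyond the spread of the libraries. In tuft-like cells Cdx2 was at 52.5 to 88.1 CPM. Cdx1 took 70.9 to 82.7% of the UMIs of both CDX genes in tuft-like cells, 66.3 to 75.4% in goblet-like, 50.7 to 63.8% in stem-like and 33.0 to 38.9% in enterocyte-like cells.

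The 3 PPAR genes had 3 different patterns. Ppara, the receptor of fatty acid oxidation, lies at chr15:85734983-85802819 (plus strand), Ppard, the broadly expressed one, at chr17:28232700-28301474 (plus strand), and Pparg, best known from fat storage, at chr6:115360951-115490399 (plus strand) in GRCm38. In stem-like cells Ppara stood at 28.2, 22.5 and 32.4 CPM (crypt-labelled) and 36.7, 38.9 and 29.3 CPM (villus-labelled). Enterocyte-like cells held it at 89.4, 67.9 and 66.5 CPM (crypt-labelled) and 59.0, 83.3 and 71.7 CPM (villus-labelled). All 6 ratios were positive, with a median log2 of 1.19 (range 0.69 to 1.67), and 0.52 with cells thinned to 1500 UMIs. Early progenitor-like cells, at 58.2 to 104 CPM, held the highest level in 5 of 6 libraries, with ranges that overlapped those of cluster 1 and enterocyte-like cells. Goblet-like and tuft-like cells, at 10.4 to 28.2 CPM and 7.05 to 24.2 CPM, lay below or within the stem-like range, and the tuft-like sums were of 3 to 20 UMIs. In the crypt-labelled LFD and HFD sham libraries goblet-like cells held 28.2 and 24.2 CPM, not below the stem-like 28.2 and 22.5 CPM.

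Ppard stood at 25.1 to 37.4 CPM in stem-like and 29.7 to 37.4 CPM in enterocyte-like cells, with a median log2 ratio of 0.14 (range -0.20 to 0.54). Between these ends of the absorptive line it was at 27.2 to 44.0 CPM in cycling progenitor-like, 32.6 to 59.3 CPM in early progenitor-like and 37.2 to 48.6 CPM in cluster 1 cells, with median log2 ratios to stem-like cells of 0.23 (range 0.10 to 0.64), 0.43 (range -0.10 to 1.14) and 0.45 (range -0.01 to 0.96). The enterocyte-like to stem-like ratio turned to -0.28 after thinning. Ppard was highest in goblet-like cells in each library, at 69.7, 67.0 and 63.6 CPM (crypt-labelled) and 71.6, 77.4 and 50.5 CPM (villus-labelled). The goblet-like level exceeded the stem-like one by a median log2 ratio of 1.04 (range 0.77 to 1.51) and the enterocyte-like one by 1.01 (range 0.56 to 1.23), and all 12 intervals excluded 0. Of the UMIs of the 3 PPAR genes, Ppard took 63.7 to 77.4% in goblet-like and 22.9 to 35.6% in enterocyte-like cells, where Ppara took 57.5 to 69.2%.

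Pparg was at a low level throughout. Enterocyte-like cells held it at 10.2, 16.0 and 12.5 CPM (crypt-labelled) and 6.9, 10.9 and 7.93 CPM (villus-labelled), on 107 to 577 UMIs. In tuft-like cells it stood at 8.07 and 17.4 CPM in the crypt-labelled LFD sham and HFD VSG libraries and at 21.1, 34.4 and 23.2 CPM in the villus-labelled ones, on 2 to 20 UMIs. The interval of the ratio of tuft-like to enterocyte-like cells excluded 0 in 3 of 5 libraries, the villus-labelled ones. At 1500 UMIs per cell at most 2.15% of enterocyte-like cells held a Pparg UMI, against at most 0.8% of immune-like cells (unthinned at most 21.5% and 1.2%). Ratios of enterocyte-like to stem-like cells rest on 3 to 80 stem-like UMIs, and 1 of 6 intervals excluded 0. The median ratio was 0.93 (range 0.19 to 1.84), but it turned to -0.76 when cells were thinned to 1500 UMIs.

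Ppargc1a and Esrra, the coactivator and the receptor that turn on oxidative genes together, were both higher in enterocyte-like than in stem-like cells. Ppargc1a lies at chr5:51454250-51567726 (minus strand) and Esrra at chr19:6910977-6921813 (minus strand) in GRCm38. In stem-like cells Ppargc1a stood at 28.2, 16.8 and 23.4 CPM (crypt-labelled) and 20.8, 11.9 and 10.4 CPM (villus-labelled), on 9 to 125 UMIs. In enterocyte-like cells it stood at 151, 111 and 123 CPM (crypt-labelled) and 138, 122 and 94.5 CPM (villus-labelled), above every stem-like value. The median log2 ratio was 2.73 (range 2.39 to 3.37), a 6.62-fold difference, but it was 1.97 with cells thinned to 1500 UMIs and 4.04 with free RNA subtracted by the fractions of immune-like cells. Cycling progenitor-like cells, at 9.58 to 27.7 CPM, overlapped stem-like cells, and both overlapped the immune-like range of 1.92 to 31.4 CPM. Early progenitor-like cells held 25.4 to 101 CPM. The median log2 ratio of cycling to stem-like cells was -0.03 (range -0.20 to 0.72) for Ppargc1a, beside 1.17 (range 0.65 to 1.43) for Hnf4g, and the difference between these ratios was not tested.

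In stem-like cells Esrra stood at 59.2, 67.4 and 55.3 CPM (crypt-labelled) and 55.4, 69.2 and 65.1 CPM (villus-labelled). Enterocyte-like cells held it at 155, 165 and 155 CPM (crypt-labelled) and 148, 171 and 191 CPM (villus-labelled), without overlap. Its median log2 ratio was 1.40 (range 1.29 to 1.55). Cluster 1, at 141 to 169 CPM, overlapped enterocyte-like cells. Esrra was intermediate in early progenitor-like cells (108 to 143 CPM) and tuft-like cells (77.5 to 118 CPM) and lower in goblet-like cells (44.7 to 71.8 CPM). The immune-like range of 34.1 to 63.7 CPM holds 3 of the 6 stem-like values and overlaps the goblet-like range. In GENCODE vM21 an exon of Esrra overlaps one of Trmt112 on the other strand, which was counted at 4.51 to 13.5 CPM in enterocyte-like cells. The use of strand in the counting is not given in the sources used here.

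Since Ppara, Ppargc1a and Esrra were all higher in enterocyte-like cells, the 250 bases before their starts are printed with the same motifs in capitals.
Ppara (chr15:85735526-85735775, plus strand): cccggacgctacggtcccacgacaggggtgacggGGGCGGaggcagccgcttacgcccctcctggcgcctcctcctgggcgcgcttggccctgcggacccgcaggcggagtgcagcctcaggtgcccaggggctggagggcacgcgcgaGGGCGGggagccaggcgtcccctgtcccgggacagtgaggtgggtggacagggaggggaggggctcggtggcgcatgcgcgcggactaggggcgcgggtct
Ppargc1a (chr5:51567726-51567975, minus strand): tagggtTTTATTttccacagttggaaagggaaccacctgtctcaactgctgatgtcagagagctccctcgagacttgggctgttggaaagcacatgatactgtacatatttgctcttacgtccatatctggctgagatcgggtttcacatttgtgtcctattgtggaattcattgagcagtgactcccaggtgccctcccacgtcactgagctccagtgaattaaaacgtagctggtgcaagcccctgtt
Esrra (chr19:6921809-6922058, minus strand): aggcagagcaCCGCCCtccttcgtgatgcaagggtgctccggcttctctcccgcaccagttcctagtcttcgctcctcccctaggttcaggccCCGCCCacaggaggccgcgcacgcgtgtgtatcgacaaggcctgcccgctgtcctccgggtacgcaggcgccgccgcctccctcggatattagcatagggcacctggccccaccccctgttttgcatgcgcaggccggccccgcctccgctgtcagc
The Ppara window held 2 GC boxes and the Esrra window 2, and the Ppargc1a window held 1 TTTATN and 0 GC boxes. GC content was 76.4% for Ppara, 68.4% for Esrra and 48% for Ppargc1a. None of these 3 windows held AGGTCA. Among the windows of the other regulators AGGTCA occurred before 2 of the 3 Pparg starts, and GC boxes before Ppard, Pparg and Prdm16 starts but not before Cdx2. A match or its absence describes only the letters of the window.

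Prdm16, at chr4:154316125-154636873 (minus strand) in GRCm38, was low in the absorptive classes and highest in EEC-like cells. In enterocyte-like cells it stood at 5.39 to 7.99 CPM on 94 to 249 UMIs. In stem-like cells it stood at 7.05, 9.36 and 13.0 CPM (crypt-labelled) and 25.3, 20.4 and 15.6 CPM (villus-labelled), on 5 to 187 UMIs. The median log2 ratio of enterocyte-like to stem-like cells was -1.31 (range -2.06 to -0.07), or -2.06 after thinning, and 4 of 6 intervals excluded 0. In EEC-like cells, which make hormones, it stood at 14.6, 39.7 and 58.0 CPM (crypt-labelled) and 42.9, 77.3 and 99.7 CPM (villus-labelled) and was highest among the classes in all 6 libraries. These sums were of 4, 4 and 21 UMIs in the crypt-labelled and 20, 33 and 44 UMIs in the villus-labelled libraries. In each of the libraries with 4 UMIs, 1 cell held 75% of them, and in the other 4 libraries no cell held more than 20.5%. The EEC-like level exceeded the enterocyte-like one by a median log2 ratio of 3.06 (range 1.12 to 4.09) and its interval excluded 0 in 5 of 6 libraries. Immune-like cells held at most 1.53 CPM.

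Among the 9 epithelial classes Paneth-like cells had the lowest median level of 9 of the 10 genes and the next to lowest of Pparg, from 1.69 CPM for Pparg to 37.9 CPM for Hnf4a. The share of all genes lowest in Paneth-like cells was not counted, so this order is not given as a trait of the 10 genes. The 10 most abundant genes took 66.0 to 69.7% of the UMIs of Paneth-like cells, against 16.1 to 24.1% in enterocyte-like cells. The part of this in these levels was not tested.

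Counted over the 10 genes, 4 (Hnf4g, Ppara, Ppargc1a and Esrra) had a log2 ratio of enterocyte-like to stem-like cells above 0.5 in all 6 libraries, and 1 (Cdx1) one below -0.5 in all 6. Over 9165 genes that averaged 50 UMIs or more per class sum, 17.8% were above and 33.9% below in this sense, and the median of all ratios was -0.37. All 10 regulators passed that filter. Without the villus-labelled HFD VSG library the counts stayed at 4 and 1.

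Within the enterocyte-like class, the genes were then followed along the villus. Each cell was placed by the share of its landmark UMIs that came from 10 tip genes (Ada, Nt5e and others) rather than 10 bottom genes (Gsta1, Ckmt1 and others), and 10156 of 10234 cells, those with at least 10 landmark UMIs, were split into 5 ranges of equal number, from bottom (range 1) to tip (range 5). Ranges are divisions of a score, not cell types, and 1294 cells lay within 1 percentage point of the lowest boundary and 70 within 1 point of the highest. Range 5 held 28 to 698 cells per library, with a median of 4891 to 15192 UMIs, against 15725 to 35214 UMIs in range 1. The fewest, 28 cells, came from the villus-labelled HFD VSG library.

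Hnf4a was higher and Hnf4g lower at the tip than at the bottom. Hnf4a stood at 95.9 to 123 CPM in range 1, 109 to 146 CPM in range 3, 147 to 266 CPM in range 4 and 324 to 388 CPM in range 5. Every tip value lay above every value of the lower ranges, and the median log2 ratio of range 5 to range 1 was 1.71 (range 1.40 to 1.93). The tip also exceeded the highest level of any class, 274 CPM in cycling progenitor-like cells. Droplets with fewer than 100 UMIs, which hold free RNA, gave Hnf4a at 95.2 to 138 CPM over the 6 libraries. The ratio was 1.70 to 1.99 over 12 other settings. Hnf4g was at 308 to 572 CPM in range 1 and 172 to 324 CPM in range 5, lower at the tip in all 6 libraries with a median log2 ratio of -0.85 (range -1.33 to -0.74). The Hnf4a share of the pair was 14.4 to 27.4% in range 1, 20.2 to 46.9% in range 4 and 54.3 to 69.0% in range 5.

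**Figure D2:**
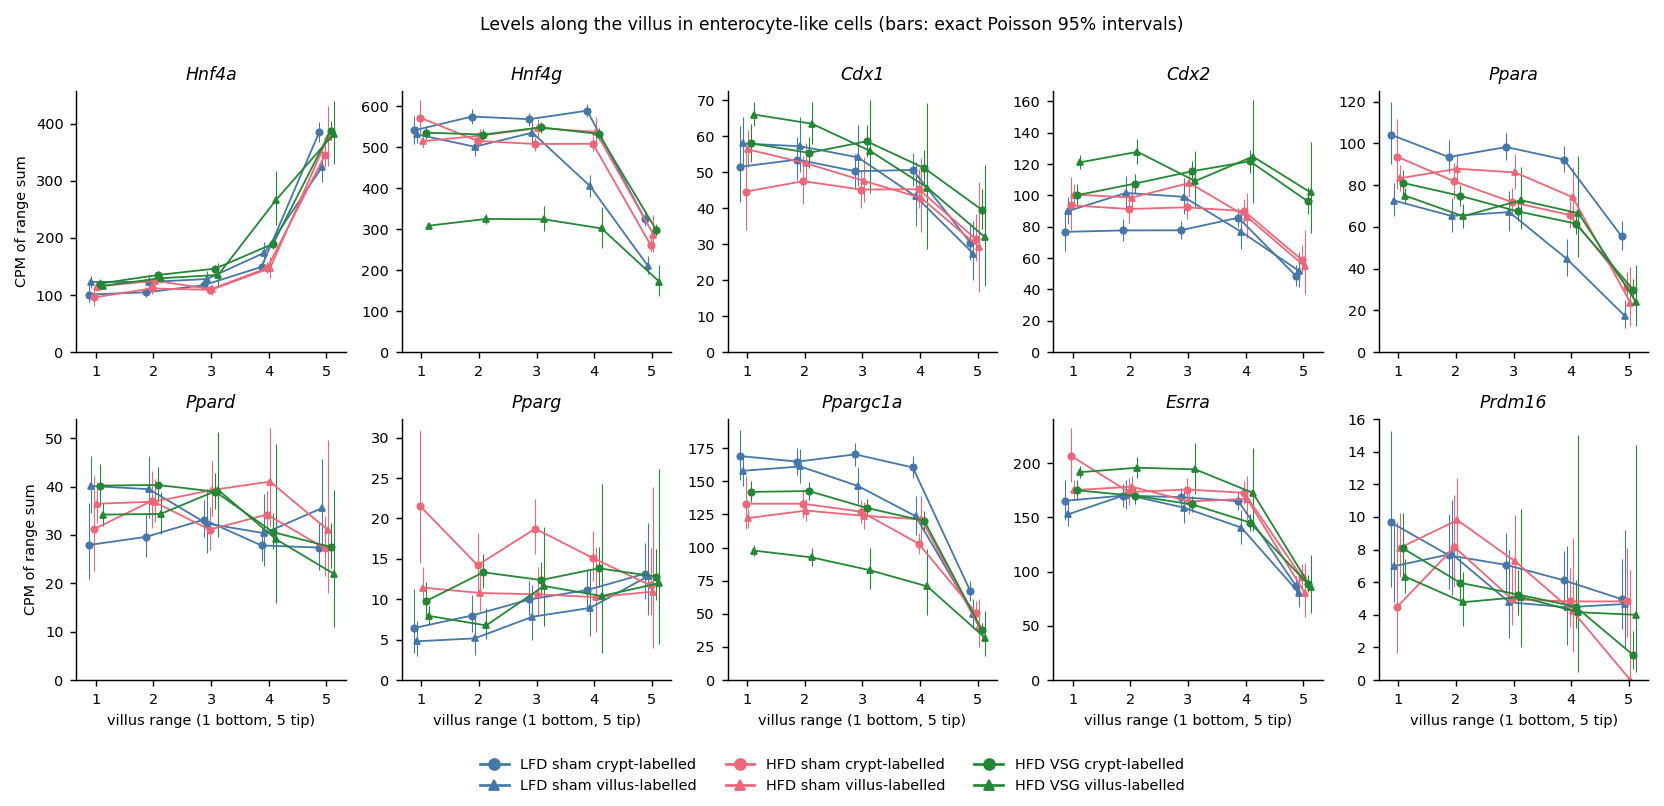
Levels of the 10 regulators (CPM, linear axes from 0) over 5 ranges of enterocyte-like cells from villus bottom to tip, with 1 line per library and exact Poisson 95% intervals. Hnf4a is higher in range 5 than in the lower ranges in all 6 libraries, while Hnf4g, Ppara, Ppargc1a and Esrra are lower in range 5 than in range 1.

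The oxidative regulators were lower at the tip, where the median mitochondrial share of the cells was 12.5 to 15.5%, against 9.49 to 12.9% in range 1, and higher than there in all 6 libraries. Ppara stood at 72.6 to 104 CPM in range 1 and 17.5 to 55.4 CPM in range 5, a median log2 ratio of -1.61 (range -2.05 to -0.91). Ppargc1a stood at 97.7 to 169 and 32.0 to 66.9 CPM, a ratio of -1.61 (range -1.92 to -1.34), and Esrra at 153 to 207 and 80.3 to 94.7 CPM, a ratio of -1.05 (range -1.16 to -0.93). For each of these 3 genes all 6 intervals excluded 0, and in range 4 the levels were still 44.6 to 92.2 CPM for Ppara, 70.7 to 160.5 CPM for Ppargc1a and 141 to 173 CPM for Esrra. When only cells with at most 10% mitochondrial UMIs were kept, which left 5 libraries, the ratios were -1.62, -2.09 and -0.89. Ckmt1, a bottom gene of the score, was among the genes most similar in level to Esrra over classes and libraries (Pearson's r 0.94). Its part in the Esrra ratio was not tested.

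Cdx1 and Cdx2 were also lower at the tip, with log2 ratios of -0.85 (range -1.08 to -0.51) and -0.67 (range -0.88 to -0.06), although that of Cdx1 was -0.24 with at most 10% mitochondrial UMIs. Ppard had a ratio of -0.22 (range -0.64 to -0.03), with 1 of 6 intervals below 0. Pparg, at 4.8 to 21.6 CPM in range 1 and 11.0 to 13.2 CPM in range 5, was higher at the tip in 4 of 6 libraries, and its share of the PPAR UMIs was 4.08 to 14.7% in range 1 and 13.7 to 20.7% in range 5. Prdm16 had a ratio of -0.57 (range -2.40 to 0.11), which turned to 0.83 over 5 libraries when only cells with at most 10% mitochondrial UMIs were kept. The range 5 sums of Pparg were of 6 to 67 UMIs. Of the 10 genes, Hnf4a was the only one higher at the tip in all 6 libraries, as were 23.1% of all genes averaging at least 50 UMIs in the range 1 and range 5 sums. The 7 genes lower in all 6 were Hnf4g, Cdx1, Cdx2, Ppara, Ppard, Ppargc1a and Esrra, as were 38.9% of all genes. The median log2 ratio was -0.85 over the 9 regulators that passed this filter, all but Prdm16, and -0.20 over all genes.

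**Figure D3:**
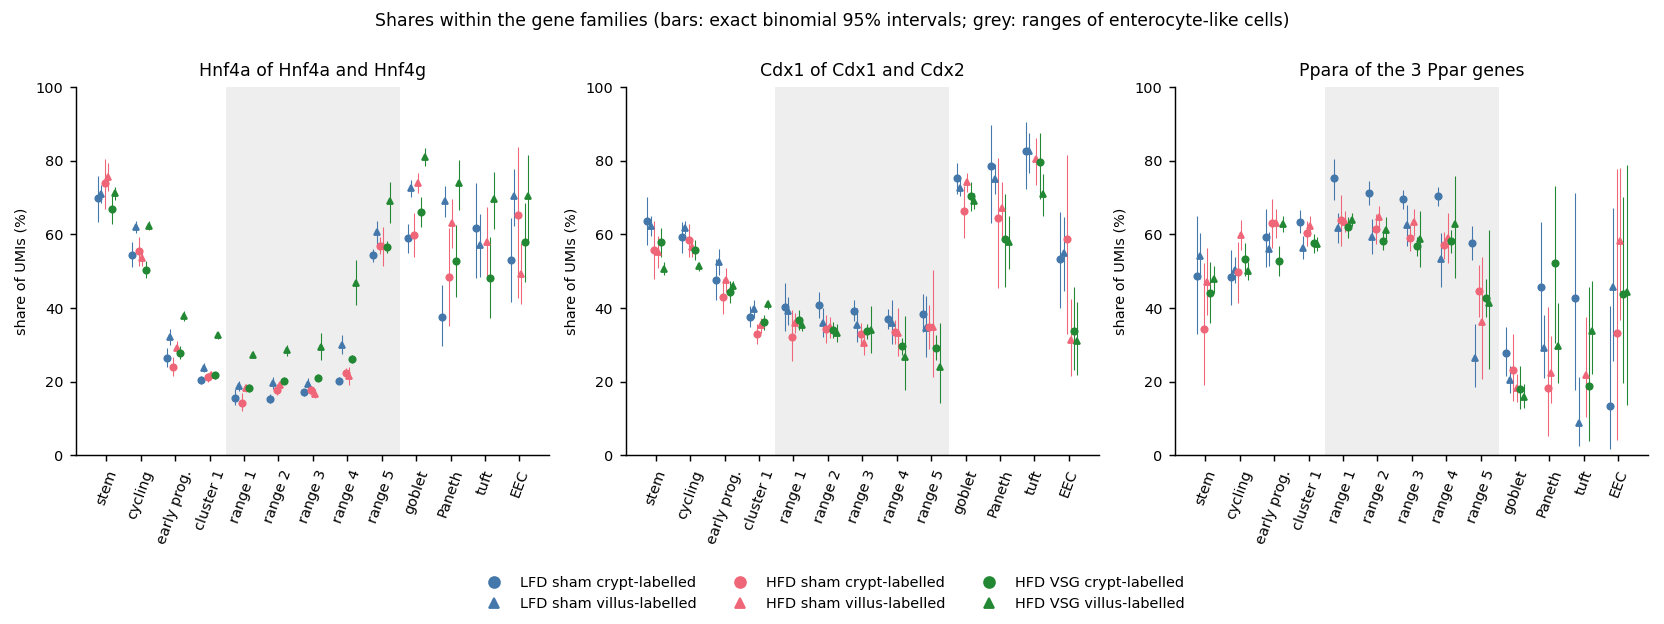
Share of UMIs (%) taken by Hnf4a among both HNF4 genes, by Cdx1 among both CDX genes and by Ppara among the 3 PPAR genes, by class and villus range, with 1 point per library and exact binomial 95% intervals. The Hnf4a share is lower in range 1 (at most 27.4%) than in stem-like cells (at least 66.9%) and at the tip (at least 54.3%).

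High-fat feeding was examined as HFD sham against LFD sham in enterocyte-like cells. The class differed in makeup, since its tip-led cluster 3 held 33.8, 33.7 and 31.8% of it in the crypt-labelled and 25.6, 13.4 and 6.43% in the villus-labelled libraries, so ratios of genes that differ along the villus mix these shares. The largest difference among the 10 genes was in Pparg, which was higher on HFD in both fractions. Pparg stood at 16.0 against 10.2 CPM in the crypt-labelled libraries, a log2 ratio of 0.65 [0.42, 0.87], and at 10.9 against 6.9 CPM in the villus-labelled ones, 0.67 [0.33, 1.01]. Pparg alone was beyond 0.5 on the log2 scale, a size used here only to describe, which makes 1 of 10 genes in each fraction, where 12.3% of all genes measured in the crypt-labelled and 13.1% in the villus-labelled libraries were. With at most 10% mitochondrial UMIs the Pparg ratios were 0.29 and 0.42, below that size, and over all other settings they ranged from 0.29 to 1.74 and from 0.42 to 1.28. Across the classes with more than 3 UMIs in at least 1 of the libraries compared, Pparg was higher on HFD in 5 of 5 crypt-labelled and 7 of 8 villus-labelled comparisons. Some sums were small, such as 12 against 6 UMIs in crypt-labelled goblet-like and 16 against 12 in villus-labelled tuft-like cells. Among the comparisons left out were crypt-labelled Paneth-like cells, with 0 UMIs on HFD and 3 on LFD. Classes of a fraction share the same libraries, and the share of all genes higher in as many classes was not counted. Along the villus the Pparg ratio was 1.74 and 1.25 in range 1 and -0.17 and -0.23 in range 5, and whether the ranges differ was not tested. These ratios rest on 29 against 12 and 96 against 22 UMIs in range 1. In range 5 they rest on 34 against 61 and 6 against 22 UMIs.

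Ppara went opposite ways in the fractions. It was 67.9 against 89.4 CPM in the crypt-labelled libraries, a log2 ratio of -0.40 [-0.49, -0.30], and 83.3 against 59.0 CPM in the villus-labelled libraries, 0.50 [0.38, 0.61]. In the crypt-labelled libraries the ratio was -0.15 in range 1, -0.45 in range 3 and -0.82 in range 5. In the villus-labelled ones it was positive in all 5 ranges, from 0.20 in range 1 to 0.73 in range 4. By enterocyte-like cluster, the crypt-labelled and villus-labelled ratios had opposite signs in 3 of 5, at -1.18 and 1.54 in cluster 3, which is led by tip genes, -0.14 and 1.04 in cluster 5 and -1.11 and 0.43 in cluster 14. They had the same sign in cluster 0, at -0.46 and -0.05, and in cluster 2, at 0.11 and 0.63. Of the clusters with opposite signs, only cluster 3 had HFD and LFD intervals apart in both fractions. The intervals overlapped in crypt-labelled cluster 5, at 57.7 [49.9, 66.5] against 63.5 [56.4, 71.2] CPM. In villus-labelled cluster 14 they overlapped at 80.9 [55.3, 114] against 59.9 [39.1, 87.8] CPM, on 32 against 26 UMIs. Cluster 3 is not the tip range alone. In the villus-labelled libraries it held 207 HFD and 299 LFD cells, beside 100 and 242 cells in range 5. In the crypt-labelled ones it held 580 and 752 cells, beside 508 and 698. The part of place along the villus in the cluster 3 ratios was not tested.

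Ppargc1a was lower on HFD in both fractions, with 111 against 151 CPM (-0.44 [-0.51, -0.37]) and 122 against 138 CPM (-0.18 [-0.26, -0.09]). Esrra was slightly higher in both, by 0.09 [0.03, 0.15] and 0.21 [0.14, 0.29]. The identity factors differed by less than 0.3: Hnf4a by -0.11 and -0.28, Hnf4g by -0.16 and 0.16, Cdx1 by -0.14 and 0.01 and Cdx2 by 0.20 and 0.18. The crypt-labelled Cdx2 ratio was 0.62 with at most 10% mitochondrial UMIs, and the villus-labelled Cdx1 ratio 0.54 after thinning. Over the other settings the villus-labelled Hnf4a ratio ranged from -0.36 to 0.02. Ppard differed by 0.14 and 0.04, the former 0.74 after thinning. Prdm16, on 94 to 206 UMIs a library, had ratios of -0.29 [-0.63, 0.05] and 0.40 [0.03, 0.77], and over the other settings both ranged to either side of 0 (-1.11 to 0.03 and -0.71 to 0.52). The median ratio over the 10 genes was -0.12 and 0.17, beside -0.01 and 0.03 over all genes. The 4 genes of damaged droplets (Gm42418, Gm26917, Lars2 and AY036118) summed to 62991 and 70949 CPM on LFD and 54562 and 42468 CPM on HFD, and their part in these ratios was not tested.

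VSG was examined as HFD VSG against HFD sham, and both comparisons share the HFD sham libraries, so an HFD sham level that is high or low enters both with opposite sign. The free RNA fractions given with the study were highest in the HFD sham libraries. Those of immune-like cells differed from them, at 0.269, 0.267 and 0.278 (crypt-labelled) and 0.221, 0.190 and 0.0907 (villus-labelled). The 0.190 rests on 6 cells. Ratios with either subtraction are among the other settings. In the crypt-labelled libraries none of the 10 genes was beyond 0.5 in enterocyte-like cells, where 8.94% of all genes were. Cdx2 and Cdx1 had the largest positive ratios, 0.33 [0.26, 0.41] and 0.31 [0.20, 0.42], and Pparg the lowest, -0.36 [-0.55, -0.16], with 12.5 against 16.0 CPM and a range of -1.14 to -0.33 over the other settings. Hnf4a stood at 0.19, Hnf4g at 0.09, Ppara at -0.03, Ppard at 0.16, Ppargc1a at 0.15, Esrra at -0.09 and Prdm16 at -0.03 (-0.58 to 0.86 over the other settings). The median over the 10 genes was 0.12 and that over all genes 0.11.

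In the villus-labelled libraries, 1 of 10 genes was beyond 0.5 after VSG, where 33.2% of all genes were. That gene was Hnf4g, at 310.4 against 522 CPM, a log2 ratio of -0.75 [-0.79, -0.71]. Its level in this library lay below that of the other 5, which held 466 to 537 CPM. Cdx1 and Cdx2 stood higher, by 0.32 [0.21, 0.42] and 0.29 [0.22, 0.37], close to their ratios in the crypt-labelled libraries. Pparg was again lower, -0.47 [-0.72, -0.21], as was Ppargc1a, -0.37 [-0.45, -0.30]. Hnf4a stood at 0.00 [-0.06, 0.07], with -0.30 to 0.25 over the other settings, and Ppara, Ppard, Esrra and Prdm16 stood at -0.22, -0.13, 0.16 and -0.45, the last turning to 0.18 after thinning. With each cell thinned to 1500 UMIs, the count of regulators beyond 0.5 was 5 here and 3 and 4 for diet, where 45.3, 26.3 and 32.3% of all genes were.

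**Figure D4:**
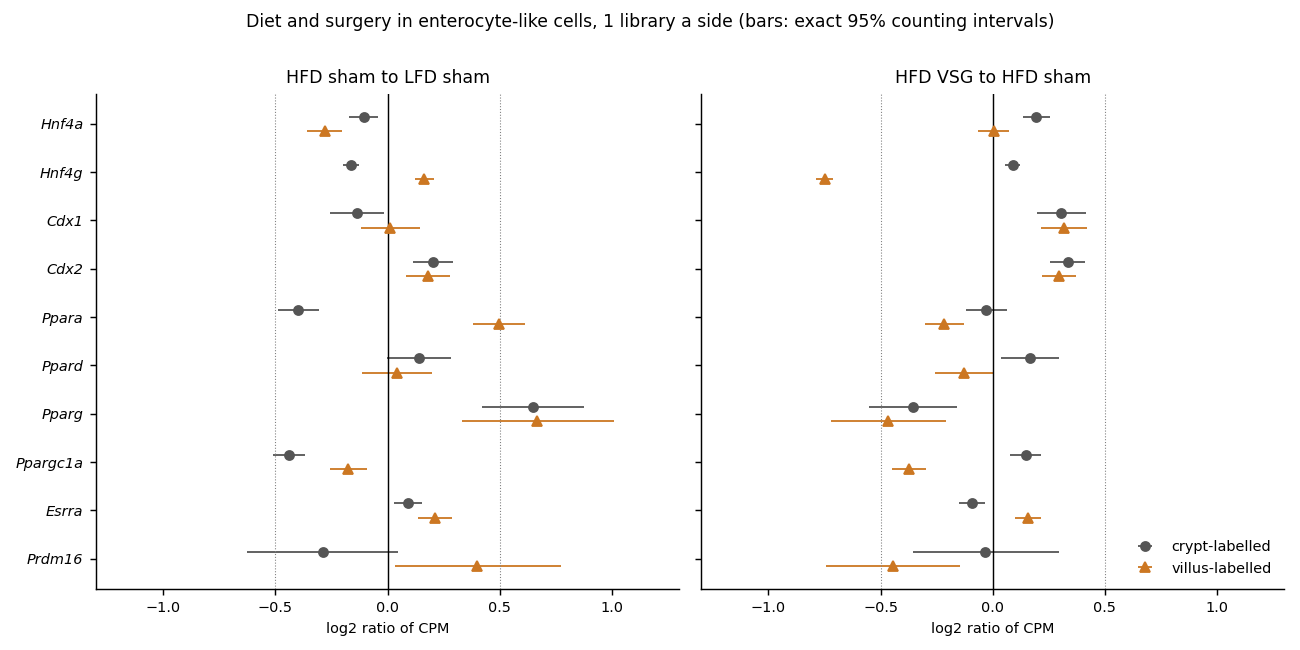
Log2 ratios of CPM in enterocyte-like cells for diet (left) and surgery (right), with crypt-labelled libraries as circles, villus-labelled ones as triangles and exact 95% counting intervals. Pparg is above 0 for diet and below 0 for surgery in both fractions, Ppara splits by fraction for diet, and Hnf4g is below -0.5 for surgery in the villus-labelled libraries.

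The low Hnf4g of the villus-labelled HFD VSG library was followed in the other classes, a choice made after its value in enterocyte-like cells was seen. Hnf4g was below HFD sham in all 9 classes, by log2 ratios from -0.38 in stem-like cells to -2.13 in EEC-like cells, and below -0.5 in 8 of them. Early progenitor-like cells held 202 against 454 CPM, cluster 1 255 against 569 CPM, and goblet-like cells 25.5 against 63.4 CPM. In the 5 villus ranges the ratio was -0.74, -0.70, -0.75, -0.83 and -0.74. In the crypt-labelled libraries the same comparison gave ratios on both sides of 0, from -0.62 to 0.37 over 8 classes. The classes share the same pair of libraries, and the share of all genes lower in as many classes was not counted. Free Hnf4g RNA was estimated at 10.2 CPM in the villus-labelled HFD VSG library. In villus-labelled HFD sham it was 30.0 CPM, an estimate from 6 immune-like cells. Paneth-like cells of these libraries held 12.9 and 21.3 CPM. The part of free RNA in the class ratios was not tested.

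Ppargc1a was also lower in all 9 villus-labelled classes and below -0.5 in 6. Cluster 1 held it at 45.8 CPM in the HFD VSG library, against 113 to 168 CPM in the other 5. Ppard was lower in all 9 classes as well, with log2 ratios from -0.11 to -0.64. Hnf4a was below HFD sham in 7 of 9 classes and below -0.5 in 5 of them, with a median of -0.60. It was lower in stem-like (-0.72), cycling (-0.64), early progenitor-like (-0.60), goblet-like (-0.72) and EEC-like cells (-0.83), and at 0.00 in enterocyte-like cells. Cdx2 was higher in 8 of 9 classes, by at most 0.72. For none of these class counts was the share of all genes that reached it computed.

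**Figure D5:**
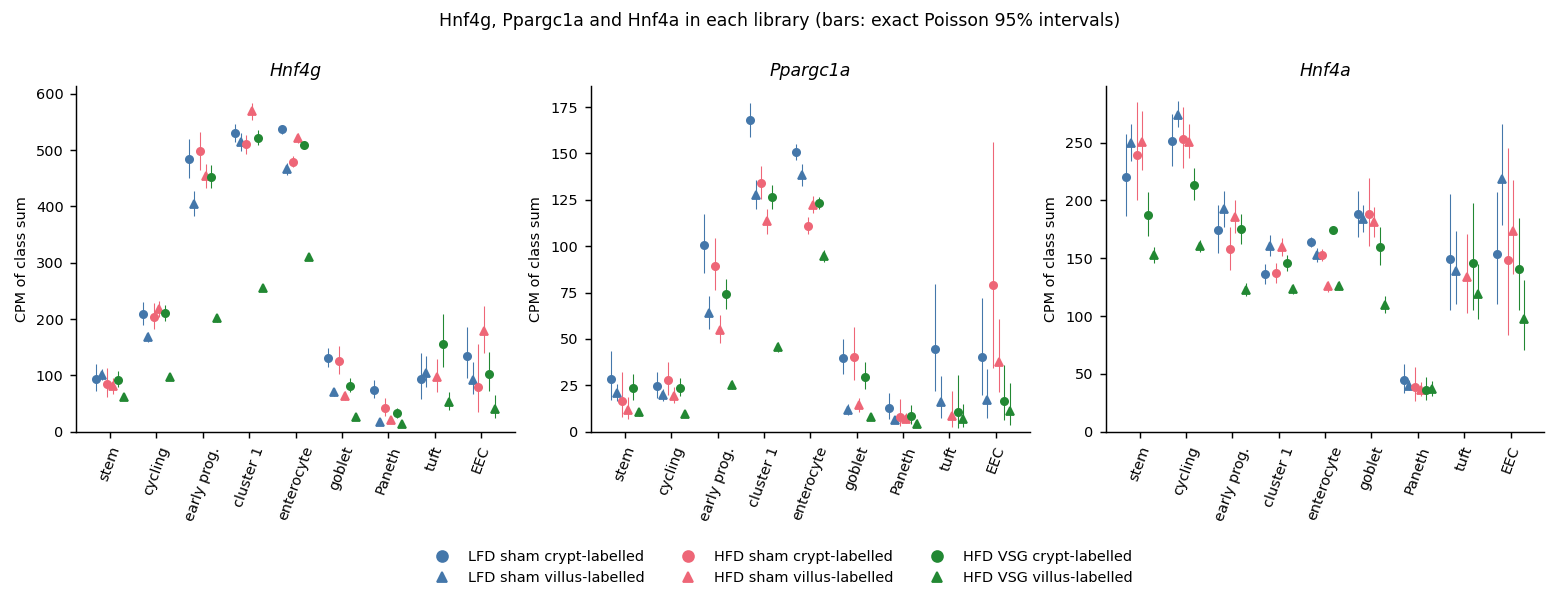
Hnf4g, Ppargc1a and Hnf4a by class in each library (CPM, linear axes from 0, exact Poisson 95% intervals). The villus-labelled HFD VSG library (green triangles) is the lowest for Hnf4g in all 9 classes and for Hnf4a in stem-like, cycling, early progenitor-like, cluster 1, goblet-like and EEC-like cells.

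This library stood apart over many genes. In cycling progenitor-like cells 40.9% of all genes were beyond 0.5 against HFD sham, beside 6.85% in the crypt-labelled libraries and 11.2% and 10.7% for diet, and the median ratio of all genes was -0.27. Of the 10 regulators 6 were below -0.5 there, where 35% of all genes were, against 0 of 8 in the crypt-labelled libraries and 1 of 10 beyond 0.5 for diet in the villus-labelled ones. The median of all genes was -0.26 in stem-like, -0.19 in early progenitor-like and -0.24 in goblet-like cells, and -0.02 in enterocyte-like cells. Of 4153 genes that averaged at least 15 UMIs in each of the 9 classes, 3.56% were below -0.5 in all 9, and none of the 5 regulators that passed this filter was. Beside these values, the 12 enterocyte markers summed to 10221 CPM in the enterocyte-like cells of this library and to 19321 to 28492 CPM in the other 5, and the genes of damaged droplets to 10393 against 42468 CPM in HFD sham. Their part in the level of Hnf4g was not tested, and with 2 pooled mice in 1 library, surgery and library cannot be told apart.

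Targets and partners of the regulators were described in enterocyte-like cells from 5 lists drawn from general knowledge. The lists were chosen with earlier results of these data known, and log2 ratios stand in parentheses. The PPAR targets, 30 genes of fatty acid use and lipid storage, did not all lie on one side. For diet in the crypt-labelled libraries 3 of 29 were above 0.5 and 3 below -0.5, with a median of 0.08, where 5.45% of all genes were above 0.5 and 6.88% below -0.5, and Acot1 (2.21) and Cyp4a10 (1.10) were the highest and Angptl4 (-1.13) and Pdk4 (-0.83) the lowest. For diet in the villus-labelled libraries 10 of 29 were above 0.5 and 2 below -0.5, with a median of 0.32, where 6.26% of all genes were above 0.5 and 6.85% below -0.5, and Acot1 (1.52) and Acot2 (0.99) were the highest, while Angptl4 (-0.89) was among the lowest. Acot1 and Acot2 encode thioesterases that release fatty acids from acyl-CoA, Cyp4a10 a fatty acid hydroxylase, and Angptl4 a secreted inhibitor of lipoprotein lipase. Ppara itself had ratios of -0.40 and 0.50.

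After VSG, Acot1 was above 0.5 among the PPAR targets in both fractions. In the crypt-labelled libraries 2 of 29 were above 0.5 and 1 below -0.5, with a median of 0.07, where 6.6% of all genes were above 0.5 and 2.33% below -0.5, and Acot1 (0.83) was among the highest, while Angptl4 (-1.07) and Ucp2 (-0.44) were the lowest. After VSG in the villus-labelled libraries 3 of 29 were above 0.5 and 7 below -0.5, with a median of -0.03, where 17.1% of all genes were above 0.5 and 16.1% below -0.5, and Acot1 (1.18) was among the highest, while Pdk4 (-1.96) and Cd36 (-1.22) were the lowest. Pdk4 encodes a kinase that restrains glucose oxidation, Cd36 a fatty acid transporter and Ucp2 a mitochondrial carrier. Ppara itself had ratios of -0.03 and -0.22, and the genes of the list were read against the same HFD sham libraries as for diet.

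The HNF4 and CDX targets, 22 genes of lipoproteins, brush border and junctions, had median ratios near 0 for diet. In the crypt-labelled libraries 1 of 20 were above 0.5 and 1 below -0.5 (5.45 and 6.88% of all genes), with a median of -0.09, and Tm4sf5 (0.54) and Apoa4 (0.37) were the highest and Slc2a2 (-0.98) and Apoc3 (-0.47) the lowest. Of the villus-labelled ratios 2 of 21 were above 0.5 and 2 below -0.5 (6.26 and 6.85% of all genes), with a median of -0.10, and Tm4sf5 (0.70) and Apoa4 (0.52) were the highest and Cldn2 (-1.06) and Slc2a2 (-0.93) the lowest. The Cldn2 ratio rests on 21 against 30 UMIs, and this gene passed the filter, a mean of 50 UMIs over the 3 libraries of the fraction, only through its 106 UMIs in the HFD VSG library. With that mean taken over the 2 libraries compared, a filter chosen after seeing the data, Cldn2 was left out and 1 of 20 was below -0.5, with no change in the counts of the other lists and contrasts. Slc2a2, the glucose transporter GLUT2, was among the lowest in both fractions. After VSG, in crypt-labelled cells, 0 of 20 were above 0.5 and 0 below -0.5 (6.6 and 2.33% of all genes), with a median of 0.04, and Apoa4 (0.45) and Slc2a2 (0.29) were the highest and Tm4sf5 (-0.25) and Krt20 (-0.10) the lowest. In the villus-labelled libraries 1 of 21 were above 0.5 and 10 below -0.5 (17.1 and 16.1% of all genes), with a median of -0.42, and Cldn2 (1.77) and Dgat1 (0.04) were the highest and Apob (-1.34) and Cdhr2 (-0.73) the lowest, beside a median of -0.02 over all genes. Cldn2, on 106 against 21 UMIs, was the only gene of the list above 0.5. It passed either filter only through the HFD VSG library, so the level that gave its ratio also admitted it to this count. In the same enterocyte-like cells the 12 enterocyte markers summed to 10221 CPM against 19321 CPM in HFD sham, and cluster 3, led by tip genes, held 6.43 against 13.4%, and the part of either in these ratios was not tested. Apob encodes the structural protein of chylomicrons, Cdhr2 a cadherin of the brush border and Cldn2 a claudin found mainly in crypts.

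The ERR alpha and PGC-1 targets, 22 genes of the TCA cycle and respiratory chain, lay within 0.5 of 0 in 3 of the 4 comparisons. On HFD, in crypt-labelled cells, 0 of 22 were above 0.5 and 0 below -0.5 (5.45 and 6.88% of all genes), with a median of 0.06, and Cox5a (0.26) and Mdh2 (0.25) were the highest and Mfn2 (-0.33) and Dlat (-0.20) the lowest. On HFD, in villus-labelled cells, 0 of 22 were above 0.5 and 0 below -0.5 (6.26 and 6.85% of all genes), with a median of 0.09, and Mdh2 (0.36) and Idh3a (0.23) were the highest and Mfn2 (-0.43) and Cs (-0.09) the lowest. Mfn2, a mitochondrial fusion protein, was the lowest and Mdh2, a TCA enzyme, among the highest in both. After VSG, in crypt-labelled cells, 0 of 22 were above 0.5 and 0 below -0.5 (6.6 and 2.33% of all genes), with a median of 0.03, and Mfn2 (0.15) and Cox5a (0.11) were the highest and Idh3a (-0.17) and Dlat (-0.11) the lowest. Of the villus-labelled ratios 2 of 22 were above 0.5 and 1 below -0.5 (17.1 and 16.1% of all genes), with a median of 0.03, and Cox5b (0.73) and Cox5a (0.53) were the highest and Ogdh (-0.51) and Cs (-0.42) the lowest. Cox5a and Cox5b are subunits of cytochrome c oxidase.

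The receptor partners and cofactors, 23 genes such as the RXR partners and the NCOA coactivators, had no gene beyond 0.5 in 3 of the 4 comparisons. For diet in the crypt-labelled libraries 0 of 19 were above 0.5 and 0 below -0.5 (5.45 and 6.88% of all genes), with a median of -0.11, and Ctbp1 (0.09) was among the highest, while Ncoa2 (-0.30) and Crebbp (-0.28) were the lowest. For diet in the villus-labelled libraries 0 of 19 were above 0.5 and 0 below -0.5 (6.26 and 6.85% of all genes), with a median of -0.11, and Ctbp1 (0.31) and Gabpa (0.23) were the highest and Ncoa3 (-0.42) and Ncoa2 (-0.22) the lowest. After VSG, in crypt-labelled cells, 0 of 19 were above 0.5 and 0 below -0.5 (6.6 and 2.33% of all genes), with a median of 0.11, and Rxrb (0.44) and Med1 (0.32) were the highest, while Gabpa (-0.12) was among the lowest. Of the villus-labelled ratios 2 of 19 were above 0.5 and 4 below -0.5 (17.1 and 16.1% of all genes), with a median of -0.20, and Ppargc1b (0.66) and Rxrb (0.60) were the highest and Ncoa2 (-0.78) and Tbl1xr1 (-0.72) the lowest. Ppargc1b, a paralog of Ppargc1a, was thus above 0 where Ppargc1a stood at -0.37.

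The other intestinal transcription factors, 23 genes, were led for diet by Hes1, a Notch target that favours the absorptive fate. In the crypt-labelled libraries 1 of 20 were above 0.5 and 1 below -0.5 (5.45 and 6.88% of all genes), with a median of -0.14, and Hes1 (0.70) and Elf3 (0.32) were the highest and Nr1i2 (-0.60) and Maf (-0.44) the lowest. Of the villus-labelled ratios 2 of 20 were above 0.5 and 0 below -0.5 (6.26 and 6.85% of all genes), with a median of 0.06, and Hes1 (0.70) was among the highest, while Nr1i2 (-0.38) and Maf (-0.19) were the lowest. Nr1i2 encodes the xenobiotic receptor PXR, and Maf a factor of mid-villus enterocytes. After VSG, in crypt-labelled cells, 2 of 20 were above 0.5 and 0 below -0.5 (6.6 and 2.33% of all genes), with a median of 0.09, and Gata5 (0.54) was among the highest, while Hes1 (-0.39) and Elf3 (-0.22) were the lowest. Of the villus-labelled ratios 0 of 20 were above 0.5 and 4 below -0.5 (17.1 and 16.1% of all genes), with a median of -0.04, and Sox9 (0.45) and Isx (0.44) were the highest and Klf4 (-1.27) and Prdm1 (-0.96) the lowest. Klf4 is a factor of postmitotic epithelium and Prdm1 (BLIMP1) one of the immature gut.

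Genes with the most similar level to each regulator were sought over 72 sums of class and library (13 classes and clusters, 6 libraries, with clusters 4 and 8 of damaged droplets and the unnamed cluster 17 among them) among 10335 genes, by Pearson's r of log2(CPM + 1). The sums share libraries and depth, so r is a description. For Hnf4a they were Arhgap32 (0.94), Slc44a1 (0.93) and Sgpp2 (0.91), for Hnf4g Ugt2b34 (0.96), 4931406C07Rik (0.95) and Slc7a8 (0.95), for Cdx1 Elf3 (0.90), Gtf2ird1 (0.89) and Amot (0.89) and for Cdx2 Cd2ap (0.91), Cenpv (0.90) and Bsg (0.90). Elf3 is an epithelial transcription factor. For Ppara they were Cds1 (0.94), Rragd (0.93) and Dab1 (0.92), for Ppard Pmm2 (0.84), Atp10b (0.81) and B4galnt2 (0.81) and for Pparg Galk1 (0.80), Aldh2 (0.80) and Trip10 (0.80). For Esrra they were Ldha (0.95), Ckmt1 (0.94) and Mdh2 (0.94). For Ppargc1a they included Gpd1 (0.95) and Muc3 (0.95) and for Prdm16 Mid2 (0.85) and Btbd3 (0.83). Gpd1 and Mdh2 are enzymes of redox shuttles into mitochondria.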

How the data were processed

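Counts were deposited by the authors as UMIs per gene and barcode, made with Cell Ranger 6.0.0 on mm10 from 10x Genomics 3′ libraries, with and without its selection of cell barcodes. Barcodes with at least 750 genes and at most 20% mitochondrial UMIs were kept after removing simulated-neighbour doublets, and clustered without the 10 regulators by SCTransform and CCA integration in Seurat 5.3.0 (2000 variable genes, 30 components, resolution 0.4). Classes were named from markers. Clusters of damaged droplets (4 and 8) and cluster 17 entered no named class, but were among the sums searched for similar genes. UMIs were summed per class and library without subtracting free RNA. Levels have exact Poisson and ratios exact conditional binomial 95% intervals, for counting error only. Sums under 3 UMIs were set to 3 in ratios. Poisson counts were simulated for 3 comparisons of enterocyte-like and stem-like sums, with 1828 to 9539 genes each. The intervals covered the true ratio for 95.3 to 96.4% of the genes given no difference. They assume such counts, so this checked the computation only. Genes averaging 50 UMIs or more over the 3 libraries of a fraction, or over the sums compared, entered the shares over all genes. Named genes were the 10 regulators, the 2 highest and 2 lowest of each list and the 3 most similar genes, of which some are not reported here. The regulators and lists were chosen with earlier results of these data known. Analyses used Python 3.11.15, SciPy 1.17.1 and R 4.3.3.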

Additional observations from a re-analysis of the deposited data

Results flagged for a closer look

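In enterocyte-like cells 5 ratios of the regulators had opposite signs in the crypt-labelled and villus-labelled libraries with counting intervals that excluded 0 in both. Each ratio had 1 library on each side, and none of these differences between fractions was tested. The share of all genes with such opposite signs was not counted, so the 5 ratios are not given as a trait of the regulators. Hnf4g after VSG stood at -0.75 in the villus-labelled libraries and 0.09 in the crypt-labelled ones, and over the other settings these ranged from -0.90 to -0.60 and from -0.18 to 0.24, so the crypt-labelled sign did not hold. Ppara on HFD stood at 0.50 and -0.40, and kept its sign in each fraction over those settings (0.20 to 0.74 and -0.54 to -0.01). Ppargc1a after VSG stood at -0.37 and 0.15, and the latter ranged from -0.12 to 0.24. Smaller differences of sign were those of Hnf4g on HFD, 0.16 and -0.16, and of Esrra after VSG, 0.16 and -0.09. They did not hold either, since Hnf4g ranged from -0.05 to 0.36 and from -0.21 to 0.11, and the crypt-labelled Esrra ratio from -0.24 to 0.02. The ratios of Cdx1 and Prdm16 on HFD and of Ppard after VSG also had opposite signs, but 1 interval of each held 0. With 1 library per group and fraction, no library could be compared with others of its own group and fraction.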

How the results depend on the processing

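Of 660 values of single regulators over 16 other settings, 507 moved by less than their counting interval or the spread of the libraries, 151 moved by more and 2 of those beyond 0.5 changed sign. This total mixes unlike settings. Leaving out any 1 library kept 20 of 20, but these medians were judged by the spread of the same libraries. Resolution 0.8 kept 50 of 50 and totals without mitochondrial genes 60 of 60. At most 10% mitochondrial UMIs kept 26 of 60 and thinning 23 of 60. Subtracting free RNA by the study's fractions kept 34 of 60, and range 1 alone 20 of 40. The sign changes were those of Pparg in enterocyte-like against stem-like cells with cells thinned to 1500 UMIs (-0.76) and of Prdm16 at the villus tip with at most 10% mitochondrial UMIs (0.83), and the cause was not tested. The number of regulators below -0.5 in all libraries was 2 with at most 10% mitochondrial UMIs and 2 after thinning, where 31.8 and 31.9% of all genes were. The number above 0.5 was 3 under the former and 3 under the latter, beside 15.7 and 8.69% of all genes. Leaving out 1 library at a time gave 1 to 2 regulators below -0.5, with 2 without the crypt-labelled LFD sham library, where Prdm16 was added to Cdx1, and left the number above 0.5 at 4 to 4.

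A size of 1 in place of 0.5 left 0 regulators for diet in the crypt-labelled and 0 in the villus-labelled libraries, and 0 for VSG in the villus-labelled ones. In the following, the share of all genes beyond 0.5 under the same setting stands in parentheses. For diet the crypt-labelled count was 3 (26.3%) after thinning and 2 (29.1%) in villus range 1 alone. The villus-labelled count was 2 (13.1%) with median-of-ratios scaling, 4 (32.3%) after thinning, and 3 (17.5%) and 2 (20.2%) with free RNA subtracted by the fractions given with the study and by those of immune-like cells. For VSG in the crypt-labelled libraries it was 2 (24.6%) with at most 10% mitochondrial UMIs, 1 (12.7%) with the first subtraction and 2 (22.9%) in range 1. For VSG in the villus-labelled libraries it was 2 (33.5%) with totals without mitochondrial genes, 5 (45.3%) after thinning, 4 (37.8%) and 3 (36.3%) with the subtractions and 2 (32.5%) in range 1. With genes of at least 1 UMI included, 43.2, 44.7, 39.5 and 54.7% of all genes were beyond 0.5, and with a mean of at least 200 UMIs 4.78% were for VSG in the crypt-labelled libraries. The alternatives for range 1 alone and for the villus tip were chosen after seeing the data. No paired analysis was possible because, for diet and VSG, each group had 1 library per fraction and no result came from a test. Ratios between classes and along the villus were taken within each library. Depth limits the class sums of 10 UMIs or fewer, which occur for each regulator but Hnf4a in at least 1 class.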
